A study of Mus musculus with 3 samples.

Results

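Immune genes were compared between mouse liver and a reference RNA: the genes of the major histocompatibility complex (MHC), interferons and the genes they induce, interleukins, chemokines, the tumour necrosis factor (TNF) family, colony stimulating factors, Toll-like receptors, immunoglobulins, Fc receptors, and the CD and Ly surface antigens. They were chosen by the letters that open their gene symbol, among probes to which the platform annotation gives 1 symbol. The choice found 123 of 7984 named genes, on 181 of 12336 named probes. Liver total RNA, bought as 1 catalogue product and labelled with Cy5, was hybridised against Universal Mouse Reference RNA (UMRR), labelled with Cy3, on 3 arrays of 2 colours, after a single round of amplification of each RNA. UMRR is sold as a mixture of RNAs of cultured mouse lines, among them lines of lymphocyte and macrophage origin. The labels give no strain, sex, age or number of animals for the liver RNA. The arrays all carry the dyes the same way round, so dye bias is part of every ratio. They repeat 1 pair of RNAs, so a p-value here speaks of how far the arrays scatter, possibly for technical reasons alone. It says nothing of how livers vary, nor of how preparations of the reference vary.

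Immune cells recognise microbes and damaged cells through receptors at their surface and signal to each other through secreted cytokines and chemokines. MHC molecules carry peptides to the surface for T cells, and interferons switch on a set of antiviral genes in almost any cell. Liver holds resident macrophages, the Kupffer cells, together with lymphocytes and sinusoidal endothelium between its hepatocytes, and hepatocytes themselves secrete complement and other proteins of innate immunity. In RNA of a whole tissue, fewer cells of a type and less RNA per cell cannot be told apart. A low ratio here says that a gene was lower in liver than in the pooled cell lines, not that liver lacked it.

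The values are the authors' log ratios, read as log2 of liver over UMRR: a value of 1 is a 2-fold higher signal in liver and -1 a 2-fold lower one. The base and the direction are not stated in the deposited table. Positive values were read as higher in liver because the 4 measured hepatocyte genes, Apoc3, Vtn, Rbp4 and Ambp, lay between 3.64 and 5.50 on the 3 arrays. With natural logs, the true log2 values would be 1.44 times those printed. The hepatocyte genes were not alone on the liver side, since 8 of 9 measured genes of pancreatic acinar cells were also higher there, with a median of 4.30. So were 3 of 5 erythroid genes, with a median of 3.09. Of all genes tested, 30.1% were higher. Array 1 stood apart from the other arrays. Over the 71 measured immune genes the SD of the difference was 0.17 between arrays 2 and 3, and it was 0.42 between arrays 1 and 2 and 0.38 between arrays 1 and 3. Array 1 was the farthest from the middle value for 44 of the 71.

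An exact 0 was taken as no ratio. Of the 123 genes, 71 had a ratio on every one of the 3 arrays (57.7%), while over all named genes this share was 69.1%. A further 10 genes had a ratio on 2 arrays at best, 16 on 1 array, and 26 were at exact 0 on every array and probe. The last group held B2m, the light chain of MHC class I, Cd68 and Cd44, Irf8, Tlr4, Fcgr2b, Il6ra, Cxcl12 with its receptor Cxcr4, and the complement inhibitors Cd55 and Cd55b. The chart of measured genes by class shows that the losses were uneven, with 7 of 7 interleukins and 3 of 3 immunoglobulins measured on every array, 20 of 35 CD antigens and 0 of 5 genes of MHC and peptide transport.

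**Figure D1:**
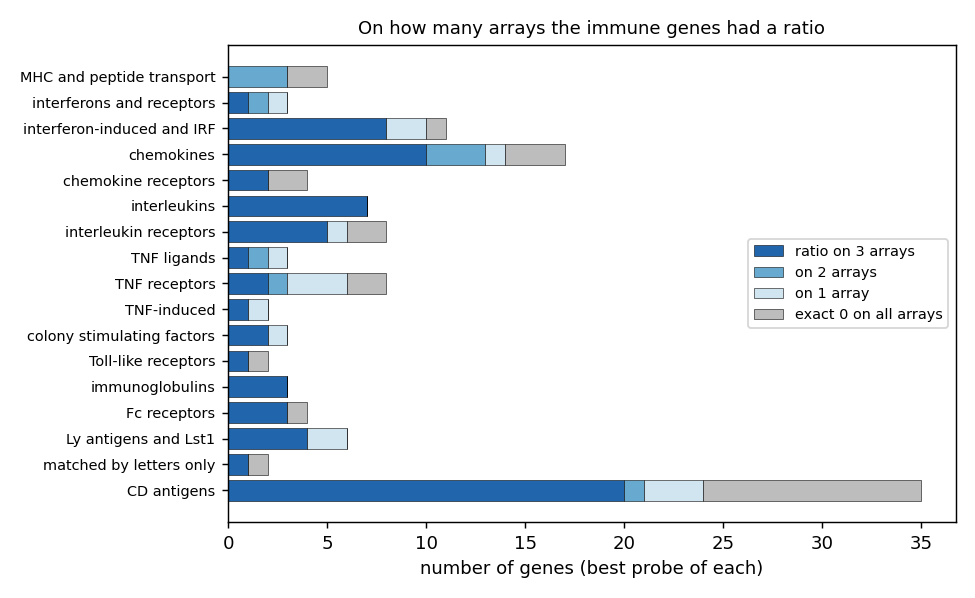
Number of genes (x axis) in each class of immune genes (y axis), coloured by the number of arrays on which the best probe of the gene had a ratio. MHC and peptide transport has no gene with a ratio on all 3 arrays, and the CD antigens hold 11 of the 26 genes at exact 0 on every array.

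The measured immune genes went both ways. In the limma fit over 5520 genes, at an adjusted p (Benjamini-Hochberg) of 0.05, 24 of the 71 were higher in liver, 21 were lower and 26 did not pass. That is 63.4% past the test, beside 64.0% of all genes tested, of which 30.1% were higher and 33.9% lower, so the share of immune genes past the test was near that of the array as a whole. The median log2 ratio was 0.080 over the immune genes and -0.028 over all genes. A ratio of 2-fold or more on each of the 3 arrays, a count with no test, was seen for 16 immune genes, beside 19.0% of all genes: 10 on the liver side and 6 on the UMRR side, beside 9.46% and 9.53%.

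The counts moved with the setting, and the background moved too. Without array 1, 29 of 75 immune genes were higher and 26 lower, beside 32.5% and 37.3% of all genes (69.8% in all). Without array 2 the counts were 21 and 19 of 75, beside 24.2% and 27.2% (51.4% in all), and without array 3 they were 19 and 19 of 73, beside 22.9% and 26.5% (49.4% in all). With exact zeros kept as ratios of 1, 18 of 123 were higher and 13 lower, beside 14.6% and 15.4% (29.9% in all). Without moderation of the variance 16 of 71 were higher and 10 lower, beside 18.7% and 19.1% (37.8% in all). Tested against a 2-fold difference, 8 were higher and 5 lower, beside 7.72% and 7.07% (14.8% in all).

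**Figure D2:**
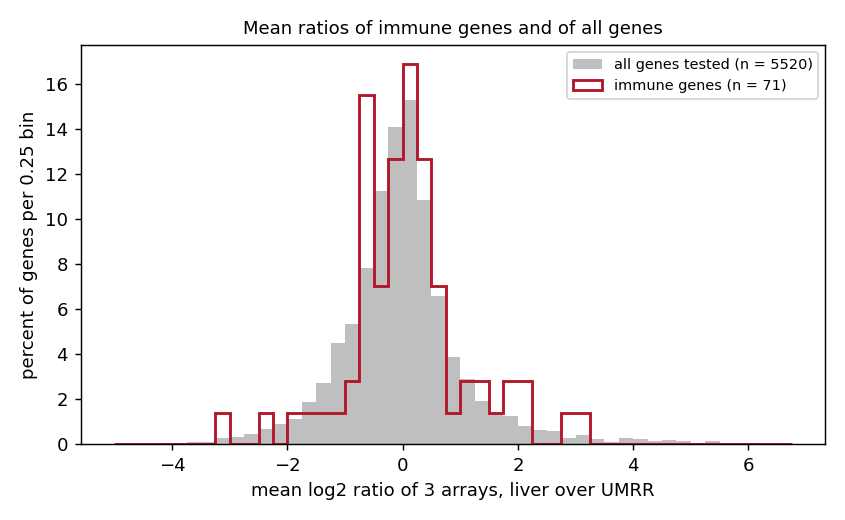
Percent of genes (y axis) in bins of 0.25 of the mean log2 ratio of liver over UMRR (x axis), for all 5520 genes tested (grey) and the 71 immune genes (red line). The immune genes spread over both sides of 0, from -3.17 for Cd63 to 3.19 for Ccl6.

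**Figure D3:**
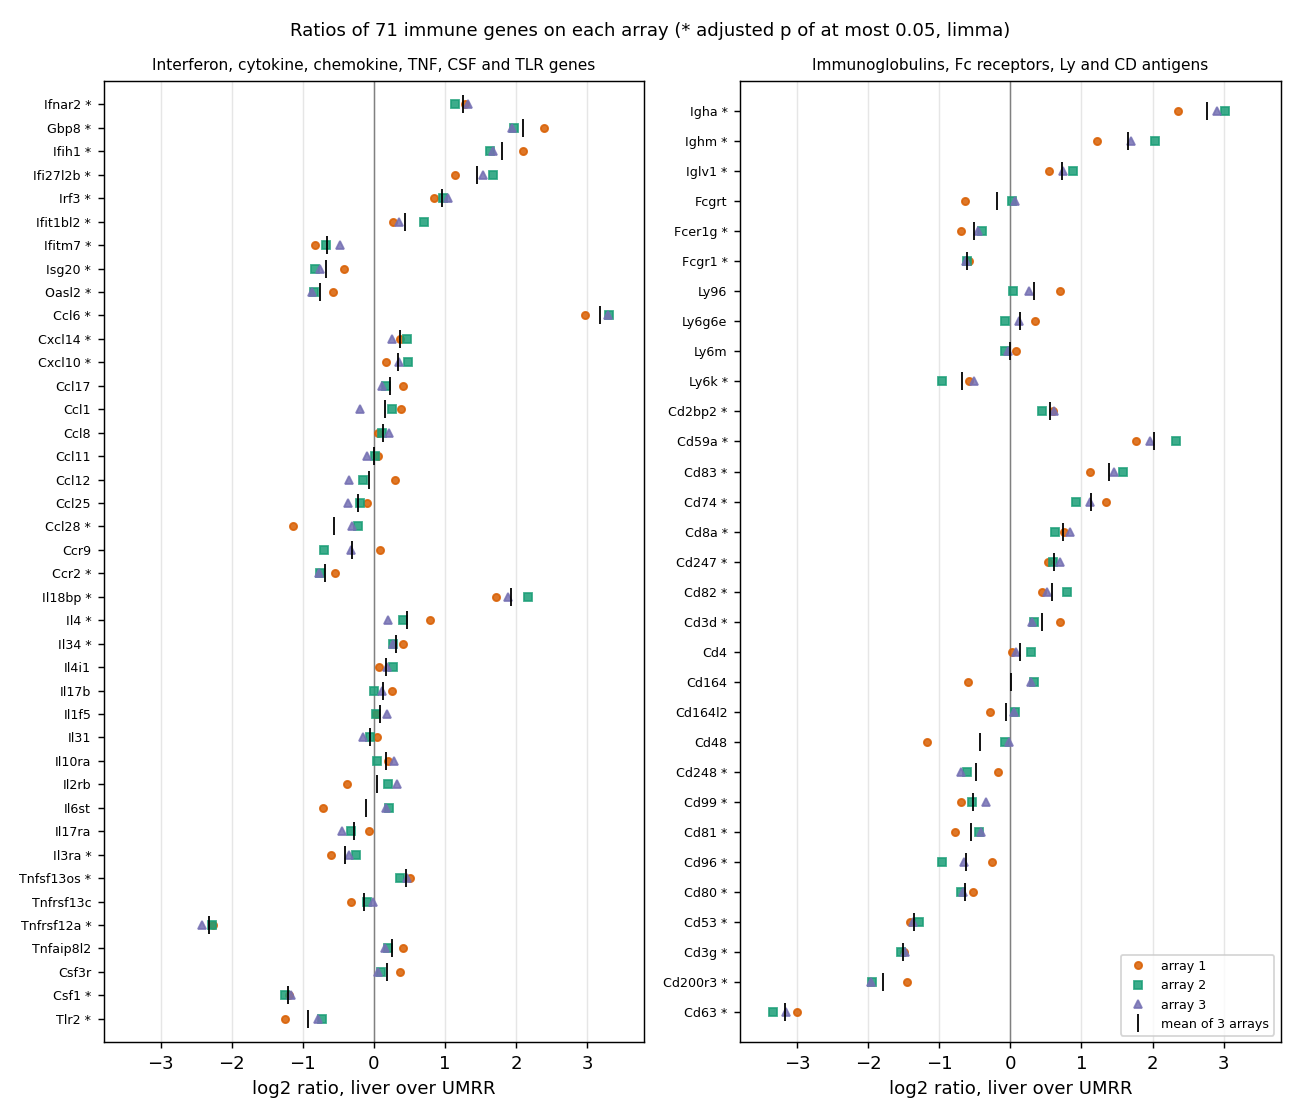
Log2 ratio of liver over UMRR (x axis) of each of the 71 measured immune genes (y axis), ordered by class, with 1 symbol per array, a bar for the mean, and an asterisk for an adjusted p of at most 0.05. Ccl6 and Igha stand farthest to the right and Cd63 and Tnfrsf12a farthest to the left. The arrays of Igha spread more (SD 0.35) than those of Tnfrsf12a (SD 0.086).

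Antigen presentation was seen through few genes. H2-Aa, the alpha chain of an MHC class II molecule, had a log2 ratio of 1.28 on array 1 and 1.12 on array 3, with an exact 0 on array 2. Cd74, the invariant chain that guides class II molecules to the compartment where they take up peptide, stood at 1.35, 0.92 and 1.12 on arrays 1, 2 and 3, with all arrays above 0, and was 2.19-fold higher in liver (1.13 ± 0.21, SD, n = 3, adjusted p = 0.000253 in limma). Another probe of Cd74 gave 2.14 and 1.88 on arrays 1 and 3 and a further one gave 1.41 on array 2 alone, so every ratio recorded for this gene was positive. H2-Q5, a class I gene outside the classical set, stood at 0.92 and 2.41 on arrays 1 and 2. Tap2, a subunit of the pump that brings peptides to class I molecules, stood at 0.41 and 0.42 on arrays 2 and 3. Class I and class II genes are families of similar sequence, and a probe can take up RNA of a related gene.

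Among other genes of antigen processing, Psme2 and Psme1, subunits of the activator of the immunoproteasome, were higher in liver at 0.79 ± 0.21 and 0.38 ± 0.082 (SD, n = 3). Canx, the chaperone calnexin, was lower at -0.49 ± 0.28. These are 3 of the 4 measured genes of the class I list, beside 64.0% of all genes past the test, and the median of the list was 0.38. Of the 4 measured genes for loading and control of class II, 1 was higher and 2 were lower, again 75%, with a median of -0.12. Ctss, the protease that trims the invariant chain, stood at 0.93 ± 0.36 and Creb1, a transcription factor used by many genes, at -1.14 ± 0.027.

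The interferon receptor and the interferon-induced genes were mostly past the test. Ifnar2, a subunit of the type I interferon receptor, stood at 1.27, 1.14 and 1.33 on the 3 arrays and was 2.37-fold higher in liver (1.25 ± 0.098, SD, n = 3, adjusted p = 7.90e-05). The arrays differed little among themselves beside the size of this ratio. Its partner chain Ifnar1 had ratios of -0.21 on array 1 and 0.36 on array 3, on either side of 0. All 8 measured genes of the interferon-induced and interferon regulatory factor class passed the test, 5 higher and 3 lower, beside 64.0% of all genes (30.1% higher and 33.9% lower).

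The highest of them was Gbp8, a guanylate-binding protein, at 2.39, 1.97 and 1.94 on the 3 arrays, 4.28-fold higher in liver (2.10 ± 0.25, SD, n = 3, adjusted p = 2.68e-05). Ifih1, the cytosolic sensor of double-stranded RNA also called MDA5, stood at 2.10, 1.64 and 1.68 (1.80 ± 0.26, 3.49-fold, adjusted p = 5.08e-05). In both, array 1 gave the largest ratio. Ifi27l2b, a member of the small ISG12 family, stood at 1.14, 1.67 and 1.54, with array 1 lowest (1.45 ± 0.28, 2.73-fold, adjusted p = 0.000148). Irf3, the transcription factor that switches on interferon beta, was close to 2-fold higher at 0.96 ± 0.096. Ifit1bl2, of the IFIT family, had the smallest difference of the higher genes at 0.44 ± 0.24, and it did not pass once array 2 (adjusted p = 0.131) or array 3 (0.0631) was left out.

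The 3 lower genes of the class were all under 2-fold by their mean. Oasl2, related to the 2-5 oligoadenylate synthetases, stood at -0.57, -0.84 and -0.87 on the 3 arrays (-0.76 ± 0.16, SD, n = 3, adjusted p = 0.00100). Isg20, an exonuclease, stood at -0.41, -0.83 and -0.75 (-0.67 ± 0.22), and Ifitm7, an interferon-induced membrane protein gene, at -0.66 ± 0.18. In each, all arrays lay below 0. Several of these genes have close relatives, so their single values are uncertain. The order from Gbp8 to Oasl2 is an order of ratios to UMRR and not of RNA levels.

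In the wider list of interferon signalling and response, chosen apart from the symbol rule, 6 of 10 measured genes were higher and 3 lower, beside 30.1% and 33.9% of all genes, and 1 missed the threshold. Their median was 0.41. Bst2, the membrane protein tetherin, stood at 1.80 ± 0.11 (SD, n = 3) and Stat2, the transcription factor that carries the signal of the type I receptor, at 1.25 ± 0.26. Ptpn2, a phosphatase that turns off JAK kinases, was lower at -1.10 ± 0.041, as was Socs1, another inhibitor of that pathway, at -0.51 ± 0.12. The remaining lower gene of the list was Eif2ak2, which is not such an inhibitor, at -0.43 ± 0.056.

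Promoter letters were read for the immune genes that RefSeq promoters (GRCm38.p6) cover, which were 85 of 123 and 50 of the 71 measured. The window was the 250 bases before the annotated start. The core of the interferon-stimulated response element, GAAA, any 2 bases and GAAA again, on either strand, was found in 5 of the 50, beside 3.46% of all 27025 genes of the promoter table. Those 5 were Cd59a, Cxcl10, Cxcl14, Ifit1bl2 and Il4, and each was among the genes higher in liver (5 of 15 with a promoter, against 0 of 18 lower and 0 of 17 that did not pass). This split has no background, since the letters were not counted among all higher or all lower genes of the array. Of the 9 genes of the interferon-induced class with a promoter, measured or not, 1 held the core (11.1%). The calls of Cxcl10, Cxcl14, Ifit1bl2 and Il4 rest on ratios of at most 0.47, and each was lost on leaving out array 2. Their windows are shown because these are the measured genes that held the letters, 5′ to 3′ on the strand of the gene, with the matched cores in capitals.
Cd59a, chr2:104095589-104095648, plus strand: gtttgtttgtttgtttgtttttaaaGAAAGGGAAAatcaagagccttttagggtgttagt
Cxcl14, chr13:56296689-56296748, minus strand: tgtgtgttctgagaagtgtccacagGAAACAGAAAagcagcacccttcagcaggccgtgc
Ifit1bl2, chr19:34640760-34640838, minus strand: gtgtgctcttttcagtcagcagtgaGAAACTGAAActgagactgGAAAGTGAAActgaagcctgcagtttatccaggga
Il4, chr11:53618821-53618880, minus strand: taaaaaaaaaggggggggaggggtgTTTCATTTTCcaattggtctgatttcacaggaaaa

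The Cxcl10 window is given whole, since it held the core of the interferon element once and that of the NF-kappaB element, GGGA and CC with any 4 bases between them, on either strand, at 2 places, all in capitals.
Cxcl10, chr5:92348890-92349139, minus strand: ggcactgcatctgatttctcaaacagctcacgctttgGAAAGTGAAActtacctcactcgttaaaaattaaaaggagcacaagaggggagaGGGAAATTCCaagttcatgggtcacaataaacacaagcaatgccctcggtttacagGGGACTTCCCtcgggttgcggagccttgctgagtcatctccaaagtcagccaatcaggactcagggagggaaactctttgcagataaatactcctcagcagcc
The NF-kappaB letters were commoner, in 19.7% of all genes of the table. They were found in 1 of the 15 higher immune genes, 6 of the 18 lower and 5 of the 17 that did not pass. These letters too were not counted among all higher or all lower genes of the array. The lower genes included Tlr2 and Csf1, the lower immune genes with the NF-kappaB letters that lay farthest from 0, whose matches close the paragraph. The last core searched, TTC and GAA with any 3 bases between them, of the gamma-activated site, was in 3 of 15 higher, 3 of 18 lower and 2 of 17 other genes, beside 8.13% of the table.
Tlr2, chr3:83841746-83841805, minus strand: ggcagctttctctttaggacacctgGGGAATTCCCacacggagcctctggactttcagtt
Csf1, chr3:107760589-107760649, minus strand: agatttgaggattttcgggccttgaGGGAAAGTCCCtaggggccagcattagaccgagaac
In Csf1 the capitals are overlapping matches on both strands, and a further match lay nearer the far end of its window. Such matches describe letters and do not show binding.

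The highest mean ratio of the measured immune genes was that of a chemokine. Ccl6, a CC chemokine of rodents made by myeloid cells, had log2 ratios of 2.96, 3.31 and 3.29 on the 3 arrays, 9.10-fold higher in liver (3.19 ± 0.19, SD, n = 3, adjusted p = 4.76e-06). This value is from 1 probe, and a second Ccl6 probe was at exact 0 on every array. Counting those zeros as ratios of 1, the mean of both was 1.59 (adjusted p = 0.00566), below that of Igha. No other chemokine measured on all arrays reached a 2-fold ratio by its mean. Of the 10 measured, 3 were higher and 1 lower (40%, beside 64.0% of all genes), while 6 missed the threshold. The median was 0.14. Cxcl14 (0.36 ± 0.11) and Cxcl10 (0.33 ± 0.16) passed with all 3 arrays but not without array 2 (adjusted p = 0.125 and 0.196) or without array 3 (0.272 and 0.174). Another Cxcl14 probe gave 0.27 and -0.11 on arrays 1 and 2, and further ones were at exact 0 throughout. With probes on at least 2 arrays let in, the mean of Cxcl14 was 0.25 and did not pass (adjusted p = 0.0572).

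Ccl28, a mucosal chemokine, was the lowest, and its value rested on array 1, with -1.13 there against -0.23 and -0.31 on arrays 2 and 3 (-0.56 ± 0.50, SD, n = 3, adjusted p = 0.0395). Without array 1 Ccl28 was lower by less, at -0.27 (adjusted p = 0.0249). Its call was lost with probes on at least 2 arrays let in (adjusted p = 0.0518). It was also lost with exact zeros kept as ratios of 1 (0.249) and without moderation of the variance (0.256). The other measured chemokines, Ccl1, Ccl8, Ccl11, Ccl12, Ccl17 and Ccl25, had means between -0.22 for Ccl25 and 0.23 for Ccl17, though without array 1 Ccl25 (-0.28, adjusted p = 0.0281) and Ccl12 (-0.25, adjusted p = 0.0461) passed. Among chemokines with a ratio on 2 arrays only, Cxcl16, the ligand of Cxcr6 that scavenges lipoproteins in its membrane form, stood at 1.64 and 1.71 on arrays 2 and 3. Ccl27a stood at 1.65 and 1.02 on arrays 1 and 3. The recorded ratios of both genes were thus above 2-fold, a further Cxcl16 probe giving 1.44 on array 2 alone.

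Of the chemokine receptors, Ccr2, which draws monocytes from the bone marrow, was lower in liver at -0.54, -0.76 and -0.78 on the 3 arrays (-0.69 ± 0.13, SD, n = 3, adjusted p = 0.00122). All 3 arrays lay below 0. Ccr9, a gut-homing receptor, stood at 0.079, -0.70 and -0.33 and did not pass, but passed without array 1 at -0.51 (adjusted p = 0.00653).

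Interleukins were close to a ratio of 1 with 1 exception. Il18bp, the secreted protein that binds and neutralises interleukin 18, stood at 1.72, 2.17 and 1.88 on the 3 arrays, 3.79-fold higher in liver (1.92 ± 0.22, SD, n = 3, adjusted p = 3.14e-05). Its probes agreed in direction: 3 probes with all arrays had means of 3.09, 1.47 and 1.21, and a pair with 2 arrays gave 1.92 and 1.78 on arrays 1 and 2, and 2.07 and 2.00 on arrays 2 and 3. The size of the ratio therefore differed between probes by more than between arrays.

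Il4, the cytokine of type 2 helper T cells, was the next at 0.79, 0.41 and 0.20 (0.47 ± 0.30, SD, n = 3, adjusted p = 0.0218), and did not pass without array 2 (adjusted p = 0.0611). Without array 1 the mean of Il4 was 0.30 and passed. Il34, a ligand of the Csf1 receptor, stood at 0.32 ± 0.080, and it did not pass once array 2 (adjusted p = 0.103) or array 3 (0.139) was left out. The others, Il4i1, Il17b, Il1f5 and Il31, lay between -0.055 for Il31 and 0.17 for Il4i1, and none of these 4 passed with all arrays. Il4i1 passed without array 1 (0.23, adjusted p = 0.0471). Il4i1 is an amino acid oxidase induced by interleukin 4, and Il1f5 is the antagonist of the interleukin 36 receptor, so neither is an interleukin that signals.

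Among the 5 measured interleukin receptor genes, Il3ra alone passed (20%, beside 64.0% of all genes). It was lower at -0.61, -0.26 and -0.35 on the 3 arrays (-0.40 ± 0.18, SD, n = 3, adjusted p = 0.0172), and did not pass without array 3 (adjusted p = 0.0829). Il10ra had the highest mean at 0.18 ± 0.13. Il6st, the gp130 chain shared by receptors of the interleukin 6 family, stood at -0.71 on array 1 and at 0.22 and 0.17 on arrays 2 and 3. Il2rb, shared by the receptors of interleukins 2 and 15, was likewise negative on array 1 (-0.37) and positive on the others (0.19 and 0.33), and without array 1 it was higher at 0.26 (adjusted p = 0.0320). Such a sign on array 1 opposite to both other arrays was seen for 9 of the 71 genes, against 2 each for arrays 2 and 3. Il17ra (-0.28 ± 0.19) did not pass with all arrays and passed without array 1 (adjusted p = 0.00653).

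The wider list for cytokine receptors and their JAK-STAT pathway had 2 of 10 measured genes higher, 4 lower and 4 that missed the threshold, so that 60% passed, beside 64.0% of all genes. The median was -0.31. The largest values were those of Socs5, a feedback inhibitor of cytokine receptors, at -1.52 ± 0.22 (SD, n = 3), and Pias2, an inhibitor of STAT proteins, at -1.0 ± 0.071.

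In the TNF family Tnfrsf12a, the receptor Fn14 of the cytokine TWEAK, was 4.98-fold lower in liver, at -2.26, -2.27 and -2.42 on the 3 arrays (-2.32 ± 0.086, SD, n = 3, adjusted p = 7.23e-06). Its 3 probes, from 3 accessions, had means of -2.11, -2.12 and -2.72, each past the test. Fn14 is known as a receptor induced by growth and injury in many cells. Its ligand Tnfsf12 had a single ratio of 0.25, on array 1. Tnfrsf13c, the receptor of the B cell survival factor BAFF, stood at -0.15 ± 0.16 and did not pass.

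Tnfsf13os, a transcript of the Tnfsf13 locus named as its opposite strand, was higher at 0.51, 0.36 and 0.46 (0.45 ± 0.075, SD, n = 3, adjusted p = 0.00613), but not once array 3 was left out (adjusted p = 0.0681). Tnfsf13, the cytokine APRIL, had ratios of -0.45 and -0.55 on arrays 1 and 2. No label names the strand of these probes, so the 2 transcripts cannot be told apart. Tnfaip8l2, a negative regulator of immune receptors, stood at 0.25 ± 0.14 and did not pass.

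Csf1, the growth factor on which macrophages depend, was 2.30-fold lower in liver than in UMRR, at -1.19, -1.26 and -1.16 on the 3 arrays (-1.20 ± 0.049, SD, n = 3, adjusted p = 7.75e-05). The spread between arrays was small beside the ratio. Its receptor Csf1r had a ratio on array 1 alone, at 0.41. Csf3r, the receptor of the neutrophil growth factor, stood at 0.18 ± 0.16 and did not pass.

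Tlr2, the receptor of bacterial lipoproteins, was lower in liver at -1.25, -0.73 and -0.79 on the 3 arrays (-0.93 ± 0.28, SD, n = 3, adjusted p = 0.00109), with array 1 lowest. Tlr4 was at exact 0 on every array and both of its probes. Ly96, the protein MD-2 that binds endotoxin together with Tlr4, stood at 0.70, 0.038 and 0.26 and did not pass (adjusted p = 0.0849). In the wider list of the pathway from Toll-like and interleukin 1 receptors to NF-kappaB, 2 of 8 measured genes were higher, 4 lower and 2 missed the threshold, so that 75% passed, beside 64.0% of all genes. The median was -0.38. Nfkb2, an NF-kappaB subunit, stood at -1.04 ± 0.42 and Cyld, a deubiquitinase that restrains the pathway, at -0.89 ± 0.18, while Ikbkb, the kinase that releases NF-kappaB, lay on the other side at 0.89 ± 0.12 and passed.

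Immunoglobulin genes were higher in liver, 3 of 3 measured, beside 30.1% of all genes. Igha, the heavy chain of IgA, stood at 2.36, 3.02 and 2.91 on the 3 arrays, 6.79-fold higher (2.76 ± 0.35, SD, n = 3, adjusted p = 1.90e-05). Ighm, the heavy chain of IgM, stood at 1.22, 2.03 and 1.70 (1.65 ± 0.41, 3.14-fold, adjusted p = 0.000229). In both, array 1 was the lowest of the 3. Iglv1, a lambda light chain variable gene, had a mean of 0.72 ± 0.17 over 5 probes from 5 accessions, of which 4 passed with means between 0.58 and 1.33. The remaining probe (777) stood at -1.06, 1.03 and 0.21 and did not repeat between arrays.

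The markers of B cells and plasma cells went both ways. Of the 7 measured, Ighm, Vpreb1 (0.57 ± 0.16, SD, n = 3) and Ebf1 (0.38 ± 0.14) were higher and 4 were lower, beside 30.1% and 33.9% of all genes, with a median of -2.41. Ms4a1, the B cell antigen CD20, stood at -3.62 ± 0.25 (SD, n = 3) and Pou2af1, a coactivator of immunoglobulin genes, at -2.69 ± 0.16. Jchain, which joins IgA and IgM into polymers, was lower too at -2.41 ± 0.079, and so was Blnk, an adaptor of the B cell receptor, at -2.42 ± 0.23. The heavy chains and these 4 genes lay apart, with every array of Igha and Ighm above 0 and every array of Jchain, Blnk, Pou2af1 and Ms4a1 below it. Immunoglobulin constant and variable genes are families, and a probe can take up RNA of several members. The acinar genes named above as higher in liver, 8 of 9 with all 9 between 0.13 and 5.65 over the arrays, lay on the same side as the immunoglobulins, and the part of other tissue in the values of Igha and Ighm was not tested.

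**Figure D4:**
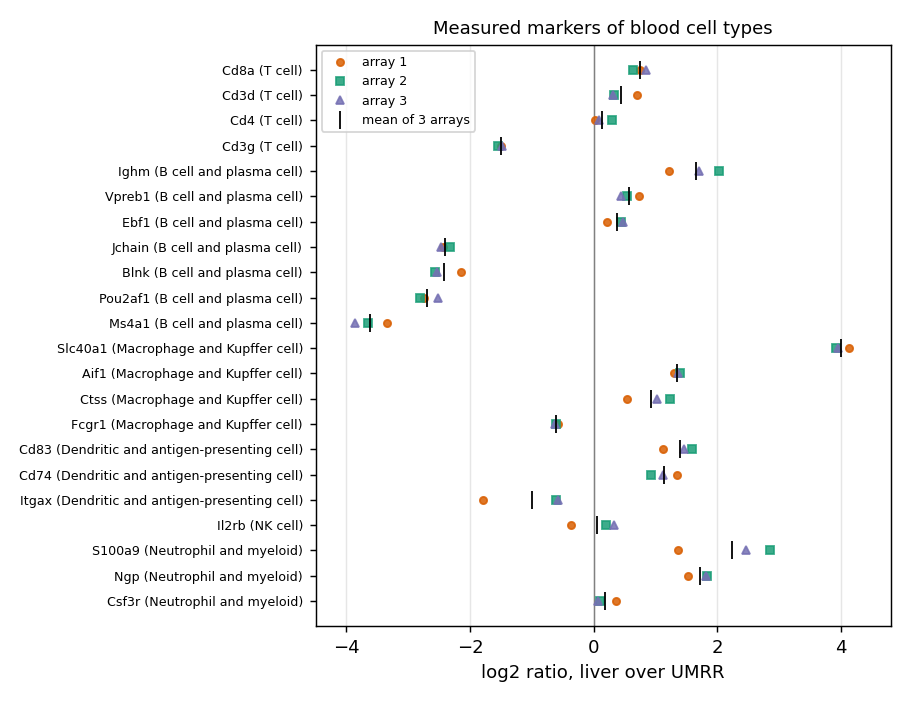
Log2 ratio of liver over UMRR (x axis) of the measured markers of T cells, B and plasma cells, macrophages, antigen-presenting cells, NK cells and neutrophils (y axis), with 1 symbol per array and a bar for the mean. Ighm stands right of 0 while Jchain, Blnk, Pou2af1 and Ms4a1 stand left of -2, and Slc40a1 stands near 4.

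Fc receptors gave values that depended on the probe. Fcer1g, the signalling chain shared by several Fc receptors, was lower in liver at -0.69, -0.40 and -0.45 on the 3 arrays (-0.51 ± 0.15, SD, n = 3, adjusted p = 0.00531). Fcgr1, the high-affinity IgG receptor of macrophages, averaged -0.61 ± 0.021 and passed (adjusted p = 0.00140), but its 5 probes opposed each other. A probe of one accession (6475) stood at 1.22, 0.85 and 0.99, and the 4 probes of the other accession had means between -1.23 and -0.90, all past the test on single probes, which 64.9% of the 9910 probes of the array passed (31.4% higher and 33.5% lower). When the probes of each accession were averaged first, the value of Fcgr1 was 0.0032 (adjusted p = 0.979), so no direction can be given for this gene.

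Fcgrt, the neonatal Fc receptor that recycles IgG and albumin, ranged most widely. One of its probes (1828) stood at 1.41, 2.61 and 2.29 (2.10 ± 0.62, SD, n = 3), while probes 177 and 208, which share an accession, stood at -1.67 ± 0.28 and -1.46 ± 0.29. These 3 passed the test on single probes, in opposite directions, and the other two lay near 0. The mean over all 5 probes, -0.18 ± 0.39, did not pass and describes none of them. With probes on at least 2 arrays let in, a further pair of that accession entered, and the mean of -0.41 passed (adjusted p = 0.0352). With noisy probes left out the mean was -0.75 and passed too (adjusted p = 0.00116).

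Ccl12, a monocyte chemokine, showed the same within 1 accession, its probes standing at 0.83 ± 0.20 and -0.96 ± 0.47 (SD, n = 3), both past the test. In all, 3 of the 12 immune genes with several probes had probes past the test in opposite directions (25%), beside 6.33% of the 1328 such genes over the array. The genes were not matched for their number of probes, on which this share and the spread between probes can depend. The 12 had a median difference of 1.10 between their highest and lowest probe, against 0.34 over all genes. Among the rest, probes past the test agreed in sign, for Cd63, Cd81, Cd59a, Tnfrsf12a, Isg20, Il18bp and Iglv1. For Isg20, 3 probes lay between -1.06 and -0.88 while the other stood at 0.29 ± 0.31 and did not pass. No probe sequence was used here, and why probes of a gene differ was not tested.

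**Figure D5:**
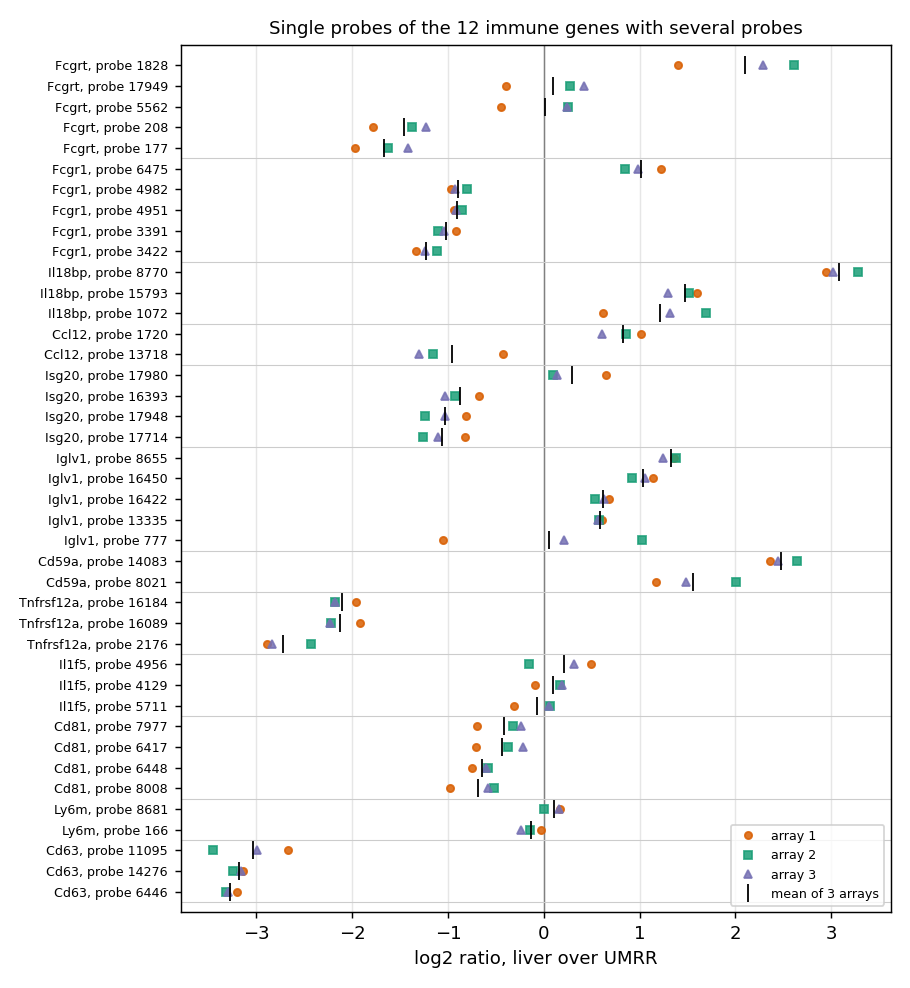
Log2 ratio of liver over UMRR (x axis) for every probe (y axis) of the 12 immune genes with several probes measured on all arrays, with 1 symbol per array and a bar for the mean, sorted by the difference between the highest and lowest probe. The probes of Fcgrt, Fcgr1 and Ccl12 stand on both sides of 0, while the 3 probes of Cd63 all lie between -3.27 and -3.04 by their means.

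CD antigens were the largest class, and 16 of the 20 measured passed the test (80.0%, beside 64.0% of all genes), 7 higher and 9 lower, with a median of -0.24. Tetraspanins, membrane proteins that organise other receptors, went from strongly lower to slightly higher. Cd63, a tetraspanin of lysosomes and exosomes found in most cells, was the lowest immune gene at -3.01, -3.34 and -3.15 on the 3 arrays, 8.97-fold lower in liver (-3.17 ± 0.17, SD, n = 3, adjusted p = 4.76e-06). Its 3 probes stood at -3.04, -3.18 and -3.27. Cd53, a tetraspanin of leukocytes, was 2.57-fold lower at -1.42, -1.29 and -1.37 (-1.36 ± 0.064, adjusted p = 4.93e-05). Both genes thus stood clear of 0 on every array.

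Cd81, a tetraspanin of B cells and hepatocytes that serves as an entry receptor of viruses, was lower by less, at -0.55 ± 0.20 (SD, n = 3). Its 4 probes, all of 1 accession, had means between -0.69 and -0.42 and all passed. The call of Cd81 was lost with exact zeros kept as ratios of 1 (adjusted p = 0.0636) and without moderation of the variance (0.0834). Cd82 was higher at 0.59 ± 0.18 (adjusted p = 0.00374), on the other side of 0 from the rest. Cd9 had a single ratio, -0.26 on array 2.

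Of the inhibitors of complement on cell membranes, Cd59a, which blocks the final pore, stood at 1.77, 2.32 and 1.96 on the 3 arrays, 4.05-fold higher in liver (2.02 ± 0.28, SD, n = 3, adjusted p = 3.91e-05). Its measured probes had means of 2.48 and 1.55, and 2 further probes gave 2.29 and 2.56, and 2.41 and 3.09, on arrays 1 and 2. Every recorded ratio of Cd59a was positive. With exact zeros kept as ratios of 1 the mean was 1.87 and no longer passed (adjusted p = 0.0811). Cd46, a cofactor for the breakdown of complement, was on the other side with -0.62 and -0.90 on arrays 2 and 3, and Cd55 was at exact 0 throughout.

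The chains of the T cell receptor complex did not move together. Cd3g stood at -1.49, -1.54 and -1.48 on the 3 arrays, 2.84-fold lower in liver (-1.51 ± 0.033, SD, n = 3, adjusted p = 3.03e-05). Cd3d, at 0.69, 0.33 and 0.31, and Cd247, the zeta chain, at 0.53, 0.60 and 0.70, were higher (0.44 ± 0.22 and 0.61 ± 0.083, adjusted p = 0.0153 and 0.00163). The call of Cd3d was lost with exact zeros kept as ratios of 1 (adjusted p = 0.100) and without moderation of the variance (0.120). The arrays of Cd3g do not overlap with those of the other chains. Cd8a, the coreceptor of cytotoxic T cells, was higher at 0.74 ± 0.11, and Cd4, that of helper T cells, stood at 0.13 ± 0.14 and did not pass. Cd96, a receptor of T and NK cells, was lower at -0.62 ± 0.35, but not once array 2 was left out (adjusted p = 0.0571). Each of these genes was read by 1 probe, and all 4 measured T cell markers are themselves among the immune genes described here.

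Genes of myeloid and antigen-presenting cells included higher and lower ones. Cd83, a surface protein of mature dendritic cells, stood at 1.12, 1.59 and 1.45 on the 3 arrays, 2.62-fold higher in liver (1.39 ± 0.24, SD, n = 3, adjusted p = 0.000131). Cd200r3, a receptor of mast cells and basophils, stood at -1.46, -1.95 and -1.96, 3.45-fold lower (-1.79 ± 0.29, adjusted p = 6.67e-05). Cd80, a costimulator of T cells, was lower at -0.64 ± 0.090. The macrophage marker list had 3 of 4 measured genes higher, beside 30.1% of all genes. Among them, Slc40a1, the iron exporter, stood at 4.0 ± 0.12 and Aif1 at 1.35 ± 0.051. The remaining gene of the list was Fcgr1, whose probes disagree. Cd68, another macrophage marker, was at exact 0 on every array. Of the neutrophil list, 2 of 3 measured genes were higher, beside the same 30.1%, S100a9 at 2.23 ± 0.77 and Ngp at 1.72 ± 0.17. Csf3r of that list did not pass. The dendritic cell list also had 2 of 3 measured genes higher, Cd83 and Cd74. Its other gene, the integrin Itgax, was lower at -1.0 ± 0.69, with -1.80 on array 1 and -0.61 and -0.59 on arrays 2 and 3. The NK cell list had 1 measured gene, Il2rb, and the mast cell list had 0.

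The remaining CD antigens lay within 2-fold by their means. Cd99, a leukocyte adhesion protein, was lower at -0.53 ± 0.17 (SD, n = 3). Cd248, endosialin of stromal cells, was lower at -0.49 ± 0.28, and missed the threshold once array 2 (adjusted p = 0.0839) or array 3 (0.124) was left out. Among markers of the other cells of liver tissue, the endothelial genes Esam (2.62 ± 0.48) and Eng (1.63 ± 0.35) were higher, 2 of 3 measured. Ramp2 of the same list stood at 0.16 ± 0.14 and did not pass (adjusted p = 0.198). The fibroblast list had 2 genes higher and 3 lower of 6, with Reln at 3.02 ± 0.43 and Anxa2 at -2.43 ± 0.29. Over all genes, 30.1% were higher and 33.9% lower. Cd48, a leukocyte ligand, had -1.17 on array 1 and -0.074 and -0.018 on arrays 2 and 3, and did not pass.

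Cd164, a sialomucin, stood at -0.60, 0.33 and 0.30 on its probe with all arrays, while a second probe gave 2.19 and 1.82 on arrays 2 and 3. Without array 1 both probes entered and the mean was 1.16 (adjusted p = 6.89e-05), so the value of this gene depended on which probe and array were used. Cd164l2 stood at -0.056 ± 0.20. Cd302, a C-type lectin receptor, had the largest single ratio of a probe seen on 1 array, 3.28 on array 2. Over the 21 probes with a ratio on 1 array the values ran from -1.54 to 3.28.

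Ly antigens showed 1 call in 4 measured genes (25%, beside 64.0% of all genes). Ly6k, a Ly6 family protein best known from testis, was lower at -0.58, -0.96 and -0.51 on the 3 arrays (-0.69 ± 0.24, SD, n = 3, adjusted p = 0.00296). A second probe of Ly6k gave -0.062 and 0.064 on arrays 1 and 2. Without array 3 that probe entered, and the mean of -0.39 did not pass (adjusted p = 0.101). With probes on at least 2 arrays let in, the mean was -0.43 and passed (adjusted p = 0.0107). Ly96, Ly6g6e (0.13 ± 0.21) and Ly6m (-0.012 ± 0.076) did not pass. Cd2bp2, which the symbol rule takes in by its letters but which codes for a splicing protein, stood at 0.55 ± 0.095 and lost its call without array 3, where a second probe entered and the mean was 0.21 (adjusted p = 0.352).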

How the data were processed

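For each array the authors deposited a signed number per probe, taken as a log2 ratio from its values. Not given in the sources used here are the scanner, background correction, dye normalization, zero rule, log base and genome build. The medians over the genes tested were -0.043, -0.028 and -0.0066 on the 3 arrays, used as deposited. The number of arrays limits the precision, and dim probes could not be filtered without scanner intensities. Probe names came from the platform annotation. Of the 123 genes, 123 matched the RefSeq table by gene identifier and 0 symbols changed.

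Probes without an exact 0 on any of the 3 arrays (9910) were kept, those with 1 symbol (7730) were averaged per gene and array, and an intercept was fitted over all 5520 genes in limma 3.58.1 (lmFit, then eBayes, under R 4.3.3), two-sided, with Benjamini-Hochberg adjustment at 0.05. Each adjusted p is from this fit, on genes or on single probes, unless its sentence names another setting. The arrays form 1 group. The fit was tested on simulated data.

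Values by array are given for genes past the test with a mean of at least 1, for the extremes of each class and for probes at least 2-fold on both of 2 arrays. Lists show the genes with the largest values. H2-Q5, Tap2, Ifnar1, Tnfsf12, Tnfsf13, Csf1r, Cd9, Cd46, Cd302, genes at exact 0, the near-zero genes shown by array and further list genes were named after their values were seen. The members and lists were chosen with earlier results of these data known. Alternatives were other centring, scaling, arrays, probe rules, zeros, variance models and thresholds.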

Additional observations from a re-analysis of the deposited data

How the results depend on the processing

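No paired analysis was possible because the arrays form 1 group. The counts of 24 higher and 21 lower immune genes changed by more than 1.5 times under a few settings. With exact zeros kept as ratios of 1, 13 genes were lower and the median was 0. Without moderation of the variance 10 were lower, and against a 2-fold difference 8 were higher and 5 lower. The median was 0.12 with probes on at least 2 arrays, 0.13 without noisy probes, and, in settings chosen after seeing the data, 0.12 with accessions averaged first and 0.13 without the 3 genes of opposed probes. Leaving out 1 array gave 19 to 29 higher and 19 to 26 lower genes. Fcgr1 changed sign with accessions averaged first (0.0032). Of the 17 called genes at least 2-fold apart by their mean, 15 kept the call in every setting but the test against 2-fold. The exceptions were Cd59a with zeros kept (adjusted p = 0.0811) and Ighm without moderation (adjusted p = 0.0514). The cause was not tested. Centring and scaling changed no call.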
